A study of Mus musculus with 9 samples.

Results

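The dual-specificity phosphatases (DUSPs) analysed here are 10 genes, *Dusp1*, *Dusp2*, *Dusp4*, *Dusp5*, *Dusp6*, *Dusp7*, *Dusp8*, *Dusp10*, *Dusp14* and *Dusp16*. They were chosen by symbol out of 25059 gene identifiers in the tables, and the 10 symbols stood on 10 identifiers. RNA-seq libraries came from ovarian granulosa cells of Kunming mice at postnatal day 21. Every mouse was primed with PMSG at 5 IU, a gonadotropin from pregnant mares that drives follicle growth. The 0 h group was taken 48 h after PMSG and before hCG. The 1 h and 6 h groups were taken 1 h and 6 h after hCG at 5 IU, the chorionic gonadotropin that binds the receptor for luteinizing hormone (LH) and sets off ovulation. There were 3 libraries per time and 9 in all, and the comparison asks how the transcripts move between the hCG stimulus and ovulation. The labels do not tie the 3 libraries of a group to different animals. A p-value here covers only how far these libraries differ, and that spread may be technical. Mice left without hCG for 1 h or 6 h were not analysed here. The hormone and the hour of collection therefore cannot be told apart.

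MAP kinases are switched on by phosphorylation of a threonine and a tyrosine in their activation loop, and DUSP enzymes of the MAP kinase phosphatase (MKP) type switch them off by removing both phosphates. Many MKP genes are themselves transcribed in response to MAP kinase or cyclic AMP signalling, which makes them negative feedback regulators. In granulosa cells the LH receptor raises cyclic AMP and, through EGF-like growth factors, activates the MAP kinase ERK, which is required for ovulation. The products of *Dusp1*, *Dusp2*, *Dusp4* and *Dusp5* are nuclear, those of *Dusp6* and *Dusp7* are cytoplasmic and prefer ERK, and those of *Dusp8*, *Dusp10* and *Dusp16* prefer the stress kinases JNK and p38. *Dusp14* encodes a small atypical enzyme that lacks the MAP kinase-binding domain of the others.

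Levels are in FPKM, which scales fragments by transcript length and by the mapped total, so they can be compared between genes. Their sum was 491920 to 495500 in the 0 h libraries, 527034 to 570986 at 1 h and 513434 to 539279 at 6 h, and the depth in reads is unknown. Across 14535 genes, Pearson's r was 0.982 to 0.988 between libraries of a time and 0.874 to 0.972 between times, where genes are not independent replicates. The granulosa markers were all detected, with a summed level of 8370 to 8920 FPKM at 0 h, 8640 to 13000 at 1 h and 3590 to 4000 at 6 h. Of these 8 markers, 7 were called lower at 6 h than at 0 h (27.9% of all genes tested). At 1 h against 0 h 2 were called higher and 1 lower (9.68% and 5.98% of all genes). In bulk libraries, fewer cells of a type and less RNA per cell cannot be told apart.

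At 1 h after hCG, 7 of the 10 DUSP genes were called higher than at 0 h and 0 lower. The count at 1 h was 4 (*Dusp4*, *Dusp6*, *Dusp8* and *Dusp16*) when replicate 1 or 3 at 0 h or replicate 3 at 1 h was left out. At 6 h, 8 were higher than at 0 h and 0 lower. Between 1 h and 6 h, *Dusp4*, *Dusp5* and *Dusp7* rose, while *Dusp8* fell. Among the tested members the ratio of mean FPKM to 0 h was highest for *Dusp8* (8.15), *Dusp4* (5.71) and *Dusp6* (4.30) at 1 h, and for *Dusp4* (9.28), *Dusp6* (5.30) and *Dusp8* (4.44) at 6 h. With 1 FPKM added before taking log2, which shrinks changes of low genes, *Dusp6* came first at both times. The later groups share the 0 h libraries as their control. Calls are limma tests of log2(FPKM + 1), over all genes that reached 1 FPKM in 3 or more libraries, at a Benjamini-Hochberg adjusted p below 0.05. Of all 14535 genes tested, 9.68% were called higher and 5.98% lower at 1 h than at 0 h (15.7% in all). At 6 h against 0 h 28.8% were higher and 27.9% lower (56.6% in all), and at 6 h against 1 h 26.7% were higher and 26.9% lower (53.5% in all). The members' median log2 change was 0.83, 1.01 and 0.27 in the 3 comparisons, beside 0.00 over all genes in each. *Dusp2* did not reach the filter, so 9 of the 10 genes were tested. *Dusp4* and *Dusp8* lay below 1 FPKM in every 0 h library and passed the filter through the later times, where they are high. *Dusp14* reached 1 FPKM at 0 h in replicate 3 alone (1.05 FPKM) and also passed through the later times.

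**Figure D1:**
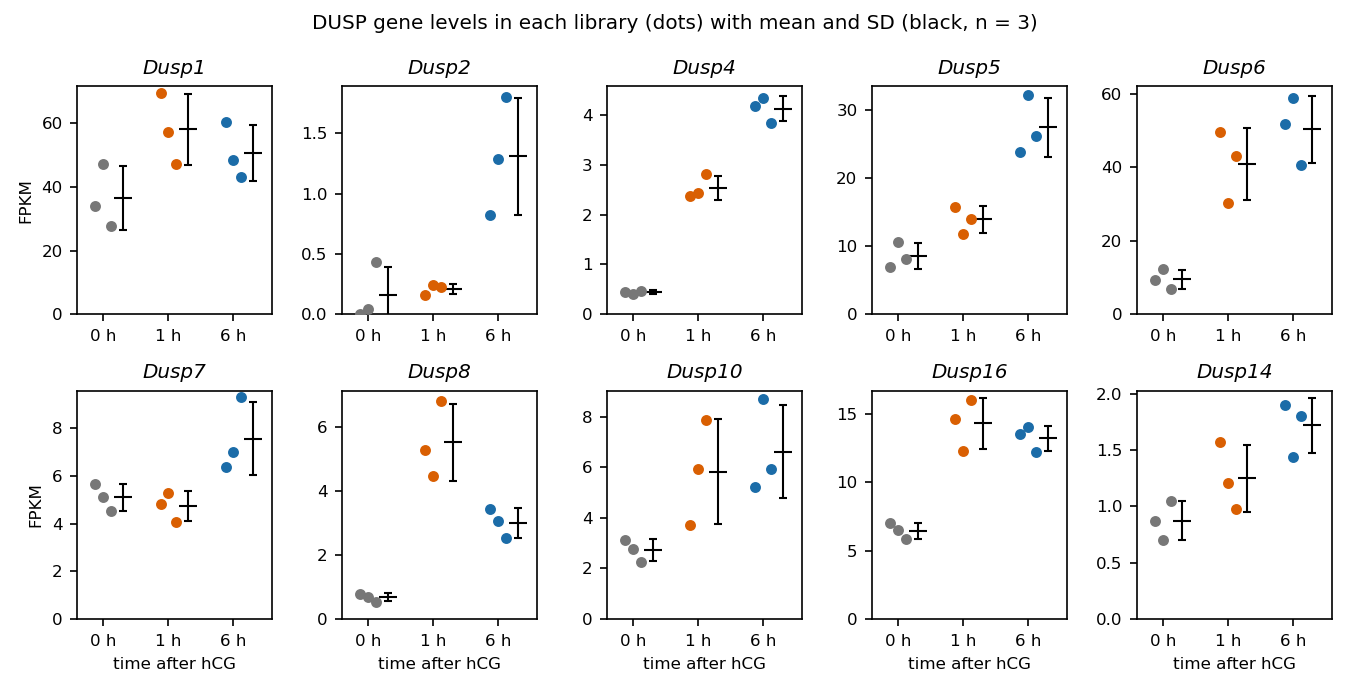
FPKM (vertical axis, from 0, with its own scale in each panel) of the 10 DUSP genes at 0, 1 and 6 h after hCG. Dots are the 3 libraries of a time and black marks are the mean and SD. *Dusp8* peaks at 1 h, *Dusp4*, *Dusp5* and *Dusp2* are highest at 6 h, and *Dusp1* has overlapping libraries at all times.

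The FPKM of the 3 libraries did not overlap between 0 h and 1 h for *Dusp4*, *Dusp5*, *Dusp6*, *Dusp8*, *Dusp10* and *Dusp16*, 6 of the 9 tested and all higher (18.3% of all tested genes were higher and 17.2% lower without overlap). Between 0 h and 6 h the same held for 8 of the 9, all except *Dusp1* (32.9% of all genes were higher and 32.1% lower). Between 1 h and 6 h, *Dusp4*, *Dusp5* and *Dusp7* were higher and *Dusp8* lower without overlap (30.5% and 30.0% of all genes). When each library was rescaled to the same FPKM sum, the median of all genes shifted by −0.14 (log2) at 1 h, and the calls over all genes went from 1407 higher and 869 lower to 1002 higher and 2634 lower. On that scale 6 DUSP genes were still called higher at 1 h and 0 lower, and the gene that lost its call was *Dusp1*.

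**Figure D2:**
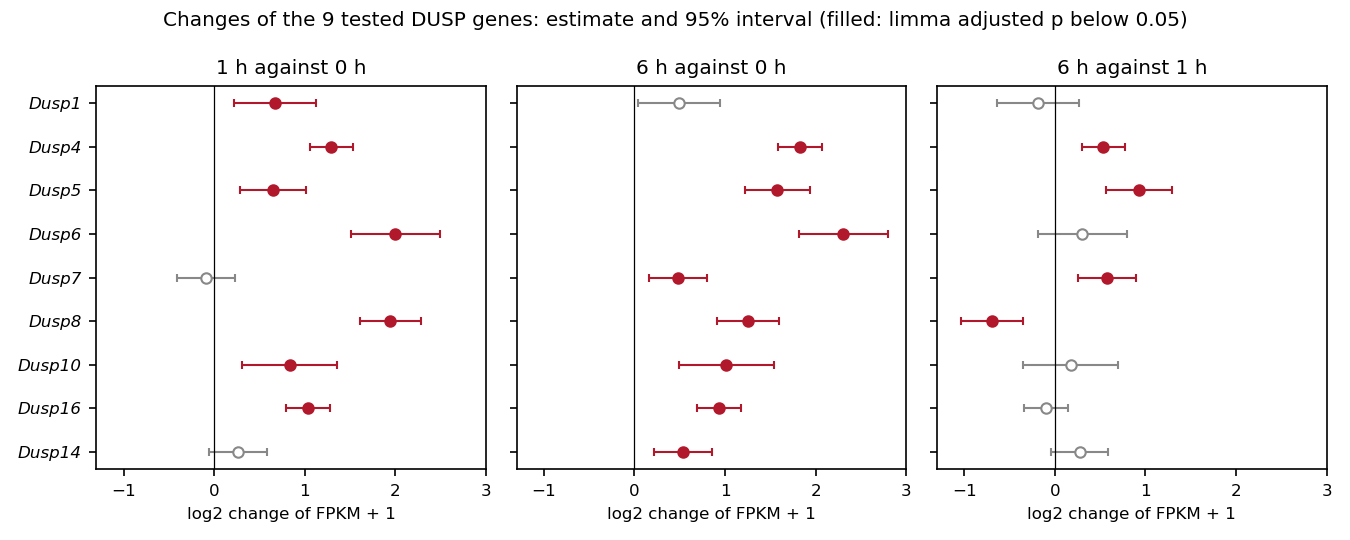
Log2 changes of FPKM + 1 (horizontal axis) of the 9 tested DUSP genes in the 3 comparisons, with 95% intervals from limma. Filled red points passed an adjusted p below 0.05. All 9 estimates are above 0 at 6 h against 0 h, and *Dusp8* is the member called lower at 6 h against 1 h.

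Promoter windows from RefSeq (GRCm38.p6, 250 bases before to 50 after the transcription start, 300 in all) were found for 9 of the 10 genes. They are shown because 3 of the windows hold rare motifs of cyclic AMP and serum response. The printed stretches run from 200 to 51 bases before the start, 150 bases each. Capitals in *Dusp1* and *Dusp8* mark the cyclic AMP response element (CRE), TGACGTCA, and capitals in *Dusp5* mark the CArG box, the core of the serum response element. *Dusp6*, called higher at 1 h and 6 h against 0 h in all 18 alternative settings, is shown beside them and holds neither. By GENCODE M21 (mm10) the *Dusp1* and *Dusp8* stretches lie upstream of the main start but within an intron of a longer transcript, that of *Dusp5* lies in an exon of an antisense gene, and that of *Dusp6* overlaps no annotated transcript.
Dusp1 (chr17:26508523-26508672, minus strand): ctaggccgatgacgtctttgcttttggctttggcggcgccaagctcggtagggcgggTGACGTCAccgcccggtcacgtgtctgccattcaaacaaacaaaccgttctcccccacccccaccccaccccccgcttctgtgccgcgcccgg
Dusp8 (chr7:142095335-142095484, minus strand): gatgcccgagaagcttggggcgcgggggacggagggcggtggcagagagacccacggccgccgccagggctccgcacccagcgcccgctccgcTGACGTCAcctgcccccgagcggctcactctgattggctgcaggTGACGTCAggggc
Dusp5 (chr19:53528945-53529094, plus strand): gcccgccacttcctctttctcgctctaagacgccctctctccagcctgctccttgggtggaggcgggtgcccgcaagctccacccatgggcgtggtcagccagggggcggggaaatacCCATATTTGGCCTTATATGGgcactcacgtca
Dusp6 (chr10:99263031-99263180, plus strand): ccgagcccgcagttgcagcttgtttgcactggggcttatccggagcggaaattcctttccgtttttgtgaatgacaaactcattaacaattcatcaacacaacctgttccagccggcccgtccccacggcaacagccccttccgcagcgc

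The full CRE was found in 1.79% of all 32851 promoter windows and in 2 of the 9 DUSP windows. In *Dusp1* it begins 143 bases before the start, and *Dusp8* holds 2 copies that begin 107 and 63 bases before it. The CArG box was found in 1.63% of all windows and among these genes only in *Dusp5*, where 2 copies begin 82 and 72 bases before the start and lie end to end. The shorter CRE core TGACG, which is also part of every full CRE, was found in 20.8% of all windows and in *Dusp1*, *Dusp2*, *Dusp5*, *Dusp8* and *Dusp16*. The GC box GGGCGG stood in 35.7% of all windows and in 8 of the 9, all but *Dusp6*. The E-box CACGTG stood in 7.15% of all windows and in *Dusp1* and *Dusp2*. The AP-1 site TGANTCA (7.81% of all windows), the TATA box TATAAA (13.6%), the ETS site CCGGAAGT (3.89%), the RUNX site TGTGGT (16.8%) and the NF-kappaB site (5.80%) were not found in any of the 9 windows. Both strands were searched for each of the 10 motifs. A match is a description of letters, and its part in the changes was not tested.

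**Figure D3:**
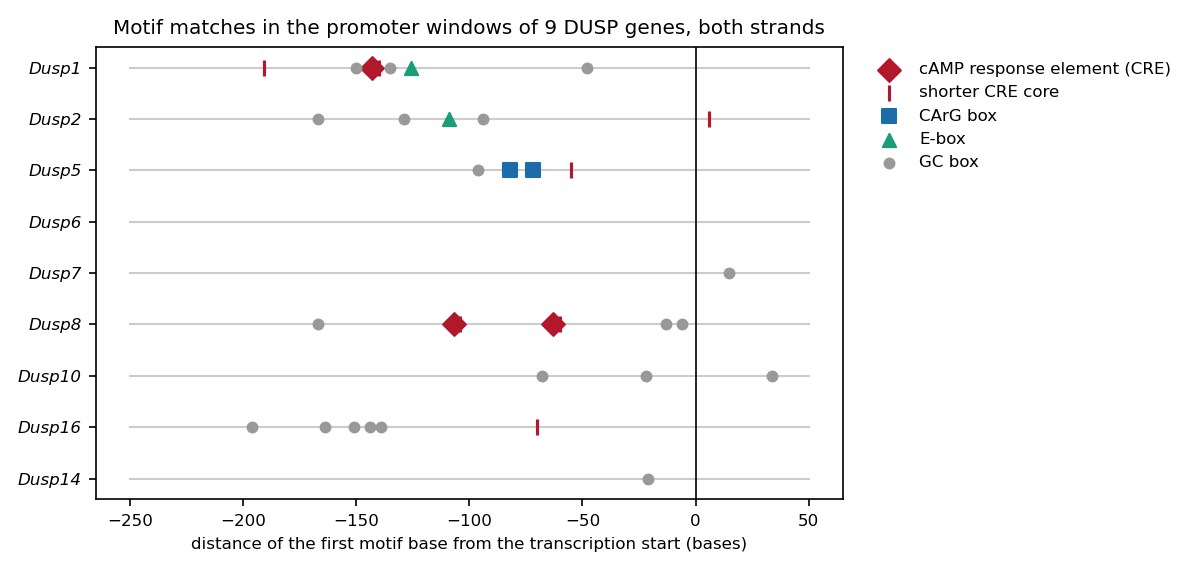
Matches of 5 motifs in the promoter windows of 9 DUSP genes, by distance in bases of the first motif base from the transcription start (vertical line). Each grey line is a window. *Dusp8* has 2 full CREs, *Dusp1* has 1, *Dusp5* has 2 CArG boxes, and the window of *Dusp6* has no match.

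*Dusp1* (ENSMUSG00000024190), whose nuclear product acts on p38, JNK and ERK, was the most abundant of the 10 before hCG. It stood at 34.1, 47.3 and 27.7 FPKM at 0 h, 69.5, 57.2 and 47.2 at 1 h, and 60.5, 48.5 and 43.2 at 6 h. The groups overlapped, because replicate 2 at 0 h reached the lowest library at 1 h and lay above the lowest at 6 h. The mean went from 36.4 ± 10 to 58.0 ± 11.1 FPKM at 1 h (SD, n = 3), a log2 change of 0.68 ± 0.20 (SE, adjusted p = 0.0493). This call ended in 13 of 18 alternative settings, with adjusted p up to 0.161. At 6 h the mean was 50.7 ± 8.86 FPKM, and the change from 0 h did not pass (0.49 ± 0.20, adjusted p = 0.062), though it did without 0 h replicate 2 (0.69, adjusted p = 0.0117). The change from 1 h to 6 h was −0.19, with a 95% interval of −0.64 to 0.26.

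*Dusp4* (ENSMUSG00000031530), which encodes a nuclear phosphatase of ERK and JNK, was near absent at 0 h and rose at both later steps. Its libraries stood at 0.454, 0.408 and 0.472 FPKM at 0 h, 2.37, 2.43 and 2.82 at 1 h, and 4.19, 4.35 and 3.85 at 6 h. The 3 groups were fully apart, and the spread within each was small (SD 0.0332, 0.246 and 0.255). The mean at 1 h was 5.71 times and at 6 h 9.28 times that at 0 h. The log2 change was 1.29 ± 0.11 at 1 h (adjusted p = 4.55e-05), 1.83 ± 0.11 at 6 h (adjusted p = 6.63e-07) and 0.54 ± 0.11 between 1 h and 6 h (adjusted p = 0.00213). *Dusp4* passed the filter through the later times, where it is high. With no filter on low values the adjusted p by limma was 0.000189 at 1 h and 3.85e-06 at 6 h. The size of the change depended on the added FPKM. It was 2.275 at 1 h with 0.1 FPKM added and 0.469 with 5 added (2.956 and 0.745 at 6 h).

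*Dusp5* (ENSMUSG00000034765) encodes a nuclear phosphatase that is selective for ERK. It stood at 6.88, 10.6 and 8.17 FPKM at 0 h, 15.8, 11.8 and 13.9 at 1 h, and 23.8, 32.2 and 26.1 at 6 h. Each time stood above the one before with no overlap, and the larger step came after 1 h. The log2 change was 0.65 ± 0.16 at 1 h (adjusted p = 0.0248), 0.93 ± 0.16 from 1 h to 6 h (adjusted p = 0.000933) and 1.58 ± 0.16 from 0 h to 6 h (adjusted p = 2.65e-05). Leaving out replicate 1 or 3 of either group ended the call at 1 h (adjusted p = 0.0742 to 0.0919), while the calls at 6 h held in all 18 settings. GENCODE M21 places an antisense gene on the opposite strand over 547 bases of *Dusp5* exon, and the library protocol does not state strand, so reads of both could be shared.

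*Dusp2* (ENSMUSG00000027368), a nuclear phosphatase gene best known from activated lymphocytes, had the lowest mean of the 10 at every time. Its libraries overlapped those of *Dusp4* at 0 h and those of *Dusp14* at 6 h. *Dusp2* was listed at 0, 0.0412 and 0.430 FPKM at 0 h, measured 0.160, 0.241 and 0.229 at 1 h, and 0.827, 1.29 and 1.80 at 6 h. All 3 libraries at 6 h lay above the other 6. With no filter on low values the log2 change from 0 h to 6 h was 0.99 ± 0.17 (adjusted p = 0.00197) and that from 0 h to 1 h was 0.08 ± 0.17 (adjusted p = 0.851). The summed level of 11 leukocyte markers was 5.64 to 12.6 FPKM at 0 h, 8.40 to 14.6 at 1 h and 5.17 to 8.63 at 6 h. Of these markers 6 were below 1 FPKM in all 9 libraries, 0 were at 0 in all of them, and 0 of the 3 that could be tested were called in any comparison by limma.

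*Dusp6* (ENSMUSG00000019960, chromosome 10, 99263231 to 99267489, mm10) encodes the cytoplasmic phosphatase of ERK and is a widely used readout of ERK activity. It stood at 9.28, 12.3 and 7.01 FPKM at 0 h, 49.6, 30.4 and 43.0 at 1 h, and 51.7, 58.9 and 40.7 at 6 h. Every library after hCG was at least 30.4 FPKM and every library before it at most 12.3, whereas 1 h and 6 h overlapped. The mean rose from 9.52 ± 2.64 to 41.0 ± 9.77 FPKM at 1 h (log2 change 2.0 ± 0.22, adjusted p = 0.000264), with replicate 2 the lowest of the 1 h libraries. At 6 h it was 50.4 ± 9.14 FPKM (2.30 ± 0.22 against 0 h, adjusted p = 1.62e-05). From 1 h to 6 h the change was 0.30 with a 95% interval of −0.18 to 0.79 (adjusted p = 0.267). Both calls against 0 h held in all 18 settings.

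*Dusp7* (ENSMUSG00000053716), the other cytoplasmic ERK phosphatase gene of the set, was not called at 1 h, where its libraries overlapped those of 0 h. It stood at 5.66, 5.12 and 4.54 FPKM at 0 h, 4.84, 5.29 and 4.06 at 1 h, and 6.38, 7.02 and 9.31 at 6 h. The log2 change at 1 h was −0.09, with a 95% interval of −0.41 to 0.23 (adjusted p = 0.718). At 6 h it was higher than at 0 h (0.48 ± 0.14, adjusted p = 0.0169) and than at 1 h (0.57 ± 0.14, adjusted p = 0.00757), without overlap. Leaving out replicate 3 at 0 h (adjusted p = 0.0596) or at 6 h (adjusted p = 0.0582) ended the call against 0 h.

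*Dusp8* (ENSMUSG00000037887, chromosome 7, 142079490 to 142095843, mm10), a phosphatase gene for JNK and p38, had a transient course. Its libraries stood at 0.791, 0.694 and 0.549 FPKM at 0 h, 5.27, 4.48 and 6.82 at 1 h, and 3.45, 3.05 and 2.52 at 6 h. The 1 h group was highest, the 6 h group lay between, and no group overlapped another. Mean FPKM at 1 h was 8.15 times that at 0 h, the largest ratio at that time among the 10 genes. The log2 change was 1.95 ± 0.15 at 1 h (adjusted p = 3.37e-05) and 1.25 ± 0.15 at 6 h (adjusted p = 8.35e-05), and from 1 h to 6 h it fell by 0.69 ± 0.15 (adjusted p = 0.00372). *Dusp8* is the single gene of the set that was called lower in any comparison, and the call held in the 17 settings that tested it.

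*Dusp16* (ENSMUSG00000030203), whose product prefers JNK, rose at 1 h and was again above 0 h at 6 h. It stood at 7.02, 6.49 and 5.82 FPKM at 0 h, 14.6, 12.3 and 16.0 at 1 h, and 13.5, 14.0 and 12.2 at 6 h. Both later groups lay above 0 h and overlapped each other. The log2 change was 1.04 ± 0.11 at 1 h (adjusted p = 0.0002) and 0.93 ± 0.11 at 6 h (adjusted p = 6.29e-05). Between 1 h and 6 h it was −0.10, with a 95% interval of −0.35 to 0.14.

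The tables give *Dusp16* in 3 rows. The most abundant row, which held 74.9% of the gene's FPKM, measured 4.03 to 5.67 FPKM at 0 h, 8.77 to 11.3 at 1 h and 9.66 to 11.8 at 6 h. The second row measured 1.35 to 1.63 FPKM at 0 h, 3.04 to 4.70 at 1 h and 2.24 to 2.78 at 6 h. In the second row the 6 h libraries thus lay between the other groups, while in the first row they overlapped those of 1 h. The tables give no transcript names, so the rows cannot be tied to isoforms.

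*Dusp10* (ENSMUSG00000039384), a phosphatase gene for p38 and JNK, stood at 3.14, 2.76 and 2.27 FPKM at 0 h, 3.71, 5.94 and 7.85 at 1 h, and 5.21, 8.70 and 5.93 at 6 h. Both later groups lay above 0 h, with a wide spread within each. The log2 change was 0.83 ± 0.23 at 1 h (adjusted p = 0.0392), a call that ended in 10 of 18 settings, and 1.01 ± 0.23 at 6 h (adjusted p = 0.00444).

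The spread of *Dusp10* came from its second row, which measured 0.275, 1.85 and 4.16 FPKM at 1 h and 0.266, 2.30 and 0.00142 at 6 h. Its most abundant row, with 79.1% of the gene's FPKM, was tight and ordered, at 2.04 to 2.93 FPKM at 0 h, 3.44 to 4.09 at 1 h and 4.95 to 6.40 at 6 h. Tested on the most abundant row of each gene alone, *Dusp10* rose between 1 h and 6 h (0.51 ± 0.13, adjusted p = 0.00992), where the sum of its rows did not (0.18 ± 0.23, adjusted p = 0.552). At 1 h against 0 h that row gave 0.44 ± 0.13 (adjusted p = 0.0557).

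*Dusp14* (ENSMUSG00000018648), the small atypical phosphatase gene, was low throughout. It stood at 0.867, 0.702 and 1.05 FPKM at 0 h, 1.57, 1.21 and 0.977 at 1 h, and 1.90, 1.44 and 1.80 at 6 h. The 6 h libraries lay above those of 0 h, and the 1 h libraries overlapped both. It was called higher at 6 h than at 0 h (0.54 ± 0.14, adjusted p = 0.00941) but not at 1 h (0.26 ± 0.14, adjusted p = 0.252). It passed the filter through the later times, where it is higher. With no filter on low values the adjusted p by limma at 6 h against 0 h was 0.0113. Its level was spread over 5 rows that took different shares from library to library, and the most abundant row held 42.3%.

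The order of the 10 genes changed over time, by means of 3 libraries. At 0 h *Dusp1* led with 36.4 FPKM, above 85.6% of the genes tested, with no overlap with *Dusp6* at 9.52 FPKM. *Dusp6* in turn overlapped *Dusp5* (8.55 FPKM), and *Dusp5* overlapped *Dusp16* (6.45 FPKM). At 1 h *Dusp1* (58.0 FPKM) and *Dusp6* (41.0 FPKM) overlapped and stood apart from *Dusp16* (14.3 FPKM) and *Dusp5* (13.9 FPKM), which did not differ beyond their spread. By 6 h *Dusp1* and *Dusp6* were level at 50.7 and 50.4 FPKM, and *Dusp5*, at 27.4 FPKM, stood apart from *Dusp6* above and *Dusp16* (13.2 FPKM) below. *Dusp7* held rank 5 at 0 h, rank 7 at 1 h and rank 5 at 6 h, where it overlapped *Dusp10*.

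The summed level of the 10 genes was 68.2, 86.4 and 58.0 FPKM at 0 h, 167, 131 and 143 at 1 h, and 171, 179 and 147 at 6 h. It was higher after hCG than before without overlap, and 1 h and 6 h overlapped. *Dusp1* held 50, 54.8 and 47.7% of that sum at 0 h, 41.5, 43.6 and 33.0% at 1 h, and 35.3, 27.0 and 29.3% at 6 h. *Dusp6* held 13.6, 14.2 and 12.1% at 0 h, 29.6, 23.1 and 30.1% at 1 h, and 30.2, 32.8 and 27.6% at 6 h. The ratio of *Dusp6* to *Dusp1* within a library was 0.253 to 0.272 before hCG, 0.531 to 0.910 at 1 h and 0.855 to 1.21 at 6 h. The 3 ratios before hCG thus lay close together, although both levels varied between those libraries.

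Grouped by role, the nuclear enzymes' genes (*Dusp1*, *Dusp2*, *Dusp4*, *Dusp5*) summed to 45.5 ± 11.4, 74.6 ± 12.1 and 83.5 ± 7.59 FPKM at 0, 1 and 6 h (SD, n = 3 each). The cytoplasmic pair (*Dusp6*, *Dusp7*) summed to 14.6 ± 2.93, 45.7 ± 9.46 and 58.0 ± 7.93 FPKM. The JNK and p38 group (*Dusp8*, *Dusp10*, *Dusp16*) summed to 9.85 ± 1.16, 25.7 ± 4.38 and 22.8 ± 2.64 FPKM. The share of the cytoplasmic pair in the whole was 19.9 to 21.9% before hCG and 33.9 to 36.7% at 6 h, most of it *Dusp6*. That of the nuclear group was 60.7 to 67.5% and 48.1 to 52.1%.

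**Figure D4:**
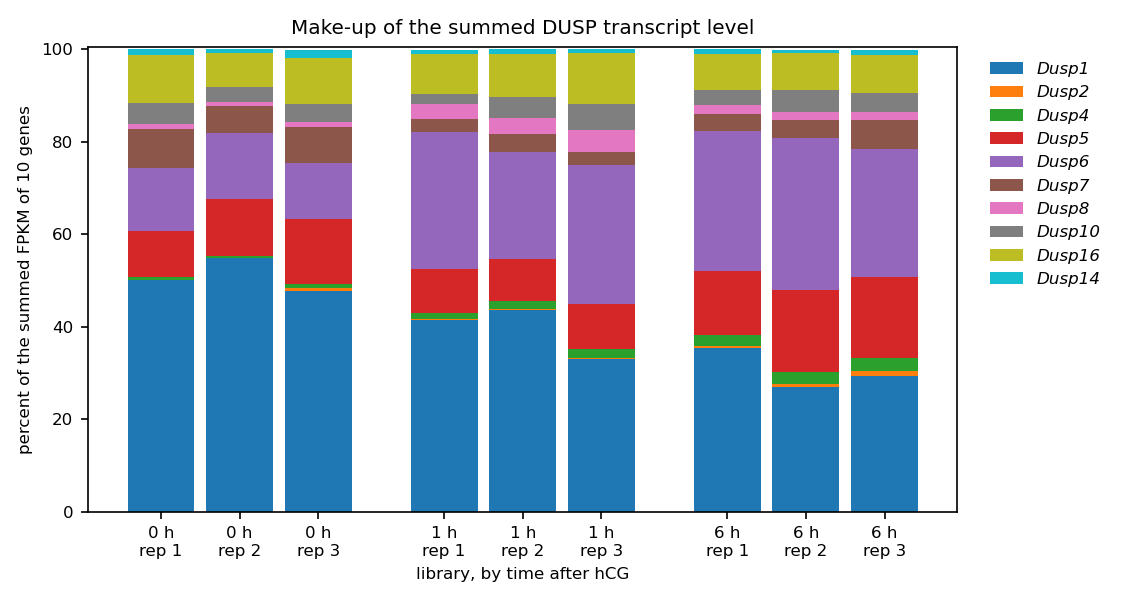
Percent of the summed FPKM of the 10 DUSP genes (vertical axis) held by each gene, in each library at 0, 1 and 6 h after hCG. *Dusp1* (blue) shrinks from about 50.8% to 30.5% by the means, and *Dusp6* (purple) grows from 13.3% to 30.2%.

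For each tested member with a log2 change of 1 or more, the genes nearest in course were found. Candidates were 9795 genes whose highest mean at any time was at least 5 FPKM. Nearness is the root mean square difference in log2(FPKM + 1), relative to the 0 h mean, over 9 libraries. The added 1 FPKM shrinks changes of low genes, so genes near on this scale can differ in their ratios of mean FPKM. Nearest to *Dusp6* were *D16Ertd472e* (0.225), the immediate-early response gene *Ier3* (0.228) and the granule protein gene *Chgb* (0.282), against a median of 1.77 over all candidates. *Ier3* had means of 15.6, 63.1 and 77.9 FPKM. *Chgb*, low at 0 h, had means of 0.581, 4.47 and 5.90 FPKM, a larger ratio to 0 h than that of *Dusp6*.

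Nearest to *Dusp8*, with its peak at 1 h, were the heparan sulfotransferase gene *Hs3st1* (0.14), the small MAF factor gene *Maff* (0.149) and *Midn* (0.157). *Maff* went from 2.23 FPKM to 12.7 at 1 h and 6.78 at 6 h, by means. *Dusp4* was nearest to *Abtb2* (0.102), the corepressor gene *Tle3* (0.126) and *Csrnp1* (0.143). By means *Tle3* went from 16.3 to 38.8 and 59.8 FPKM, smaller ratios than those of *Dusp4* (0.445, 2.54 and 4.13 FPKM). *Dusp5* was nearest to *Irf2bpl* (0.155), the mannosidase gene *Man2a1* (0.172) and *Fam84a* (0.175). *Dusp16* was nearest to *Chp1* (0.071), *Vps37b* (0.0898) and *Trp53inp2* (0.106), and *Dusp10* to the uridine-cytidine kinase gene *Uck2* (0.234), the small GTPase gene *Rhob* (0.238) and *Fbxo33* (0.241). Among the members themselves *Dusp7* and *Dusp14* (0.279) and *Dusp10* and *Dusp16* (0.283) were the closest pairs.

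The transcripts differ in a feature tied to message turnover. The pentamer ATTTA is the core of AU-rich elements, which shorten the life of many early-response messages. In the 3′ UTR of the longest coding transcript in GENCODE M21, *Dusp1* holds 4 copies in 690 bases (5.80 per kilobase) and *Dusp2* holds 4 in 581 (6.88 per kilobase). These densities exceed those of 95.4% and 97.3% of 11617 tested genes with a 3′ UTR of at least 100 bases, whose median was 1.35. *Dusp10* has 3 copies in 1113 bases (2.70 per kilobase) and *Dusp8* 5 in 2370 (2.11 per kilobase). *Dusp4* has 2 in 1111 (1.80 per kilobase) and *Dusp16* 3 in 2411 (1.24 per kilobase). *Dusp6* has 1 in 1189 and *Dusp5* 1 in 1109, and *Dusp7* and *Dusp14* have 0. The part of this feature in the levels was not tested.

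The genes of the MAP kinase list, which is wider than the ERK, JNK and p38 enzymes named above, gave no call at 1 h. Of 13 MAP kinase genes 9 could be tested, and limma called 0 higher and 0 lower at 1 h (5 at an unadjusted p below 0.05), with a median log2 change of 0.00, as over all genes. When each library was rescaled to the same FPKM sum, 2 of them were called lower at 1 h, while quantile normalization called 1 higher. A fit that left out 1 library also called 1 higher. Over all genes the shares at 1 h were 9.68% higher and 5.98% lower, so few calls are due among 9 genes. *Mapk3*, which encodes an ERK enzyme, had a mean of 29.8 ± 1.07 FPKM at 0 h and 29.6 ± 2.21 at 1 h. At 6 h against 0 h, 3 MAP kinase genes were higher and 2 lower (28.8% and 27.9% of all genes). Against 1 h, 3 were higher (1 without 6 h replicate 2) and 3 lower (26.7% and 26.9% of all genes). *Mapk9* and *Mapk10*, which encode JNK enzymes, fell from 30.7 ± 3.66 to 17.5 ± 1.20 FPKM (log2 change −0.78 ± 0.10) and from 2.35 ± 0.196 to 1.07 ± 0.367 FPKM (−0.71 ± 0.15) between 0 h and 6 h. *Mapk8*, the third JNK gene, fell between 1 h and 6 h (−0.36 ± 0.12), and *Mapk6* rose from 25.7 ± 0.849 to 35.1 ± 0.836 FPKM between 0 h and 6 h (0.44 ± 0.08).

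Of the 7 MAP2 kinase genes, whose products phosphorylate MAP kinases, limma called 0 at 1 h (1 at an unadjusted p below 0.05) and 3 higher and 2 lower at 6 h against 0 h, with medians of −0.01 and 0.20. On the rescaled values 1 was called lower at 1 h. Over all genes 15.7% were called at 1 h, and 28.8% were higher and 27.9% lower at 6 h against 0 h. *Map2k4*, which activates JNK, rose from 20.3 ± 1.70 to 49.5 ± 1.01 FPKM between 0 h and 6 h (1.25 ± 0.07), and *Map2k3*, which activates p38, from 11.6 ± 0.261 to 22.6 ± 0.616 (0.91 ± 0.07). *Map2k6*, which also activates p38, fell from 10.5 ± 0.880 to 4.21 ± 0.722 FPKM (−1.15 ± 0.12). *Map2k2*, an ERK activator, rose from 39.4 ± 2.53 to 55.8 ± 5.59 FPKM (0.49 ± 0.09).

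Upstream, 21 of 24 RAS, RAF and MAP3 kinase genes were tested. At 1 h 5 rose and 1 fell, and at 6 h against 0 h 13 rose and 5 fell, with medians of 0.06 and 0.39. Of all genes 9.68% rose and 5.98% fell at 1 h, and 28.8% rose and 27.9% fell at 6 h. The 1 lower call at 1 h was lost when any 1 of the 0 h or 1 h libraries was left out, and on the rescaled values 3 were lower at 1 h. *Map3k2* rose from 10 ± 0.791 to 31.3 ± 3.39 FPKM by 6 h (1.55 ± 0.09), and *Sos2*, an exchange factor for RAS, from 13.8 ± 0.342 to 34.4 ± 2.96 (1.25 ± 0.10). The stress-responsive *Map3k5* fell from 68.0 ± 9.96 to 26.5 ± 4.94 FPKM (−1.33 ± 0.15), and the RAF scaffold gene *Ksr1* from 20.3 ± 1.73 to 12.0 ± 1.06 (−0.71 ± 0.13).

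Among 11 genes for kinases that MAP kinases activate, all tested, 4 rose and 0 fell at 1 h, and 5 rose and 3 fell at 6 h against 0 h, with medians of 0.15 and 0.26. The 5 higher at 6 h became 3 on the rescaled values, and 2 without 0 h replicate 3 or 6 h replicate 2. Over all genes 9.68% were higher and 5.98% lower at 1 h, and 28.8% higher and 27.9% lower at 6 h against 0 h. *Mknk2* rose from 21.8 ± 2.13 to 45.3 ± 13.8 FPKM at 1 h (0.98 ± 0.18), *Rps6ka2* from 51.5 ± 1.95 to 93.2 ± 14.4 (0.83 ± 0.10) and *Mapkapk3* from 11.5 ± 3.87 to 19.7 ± 2.97 (0.76 ± 0.21). *Rps6ka3* fell from 83.4 ± 12.2 FPKM at 1 h to 44.9 ± 5.43 at 6 h (−0.87 ± 0.12).

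The last list holds the remaining phosphatases of the same family and the tyrosine phosphatases of MAP kinases. This list and the members were chosen with earlier results of these data known. A contrast between them is therefore not independent of the data. Of 18 such genes 11 were tested, and limma called 0 higher and 0 lower at 1 h (2 at an unadjusted p below 0.05), with a median log2 change of −0.09 and a highest of 0.20. On the rescaled values 2 were called lower at 1 h. Over all genes the shares at 1 h were 9.68% higher and 5.98% lower, so few calls are due among 11 genes. At 6 h against 0 h 2 rose and 2 fell (28.8% and 27.9% of all genes), with a median of 0.04. The lower calls at 6 h were 4 on the rescaled values, and 1 with quantile normalization or when replicate 1 or 3 at 0 h or replicate 1 at 6 h was left out. The tyrosine phosphatase gene *Ptpn5* went from 1.37 ± 0.146 FPKM at 0 h and 1.18 ± 0.196 at 1 h to 6.94 ± 0.492 at 6 h (1.87 ± 0.11 against 1 h). *Dusp18* rose from 2.72 ± 0.322 at 1 h to 5.27 ± 0.498 FPKM at 6 h (0.75 ± 0.12) and *Dusp22* from 7.01 ± 0.857 to 10.2 ± 1.81 (0.47 ± 0.13). *Dusp19* fell from 3.59 ± 0.776 at 0 h to 1.91 ± 0.198 FPKM at 6 h (−0.65 ± 0.13). *Dusp9*, the remaining cytoplasmic ERK phosphatase gene, measured 1.88 ± 0.466, 1.68 ± 0.171 and 1.95 ± 0.396 FPKM at the 3 times. The difference between the lists was not tested.

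**Figure D5:**
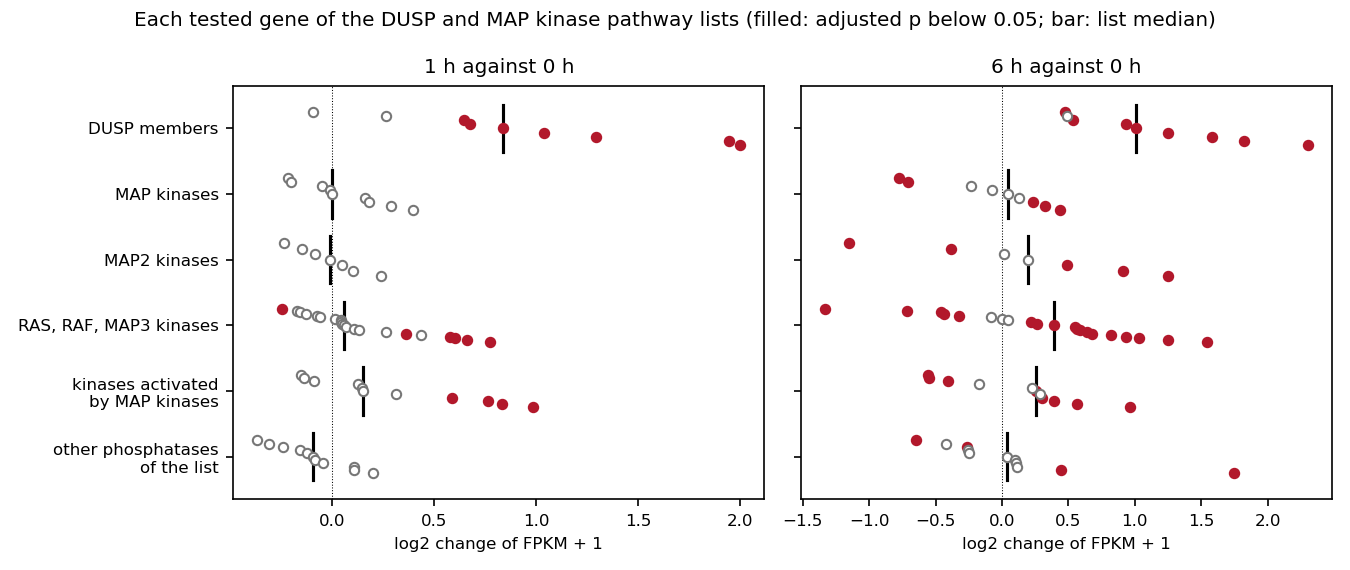
Log2 change of FPKM + 1 (horizontal axis) of each tested gene of the 10 DUSP genes and of 5 MAP kinase pathway lists, at 1 h and at 6 h against 0 h. Filled red points passed an adjusted p below 0.05, and black bars are list medians. Members and lists were chosen with earlier results known. Of all genes tested, 9.68% were called higher and 5.98% lower at 1 h, so few filled points are due in a short list. At 1 h 7 DUSP genes are filled, while the MAP kinase, MAP2 kinase and remaining phosphatase lists have 0 filled points. On values rescaled to the same FPKM sum, 2, 1 and 2 genes of these lists were called lower. With quantile normalization, or in a fit that left out 1 library, 1 MAP kinase gene was called higher.

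Markers of other cell types were also called between the times. Of all genes tested, 28.8% were called higher and 27.9% lower at 6 h against 0 h, so some calls are due in any list. At 1 h against 0 h 15.7% were called. At 6 h against 0 h, 8 of 9 oocyte markers (8 tested) were called higher (summed level 41.2 to 65.5 FPKM at 0 h, 53.8 to 64.6 at 1 h and 73.6 to 110 at 6 h) and 3 of 8 endothelial markers, 7 of them tested (17.9 to 25.4, 21.2 to 23.6 and 26.6 to 34.7 FPKM). Of 9 theca and stroma markers 4 were lower at 6 h than at 0 h (194 to 307, 257 to 412 and 105 to 132 FPKM), as were 2 of 5 erythroid markers, 4 of them tested (133 to 202, 89.7 to 204 and 69.5 to 133 FPKM). In these lists 0 markers were at 0 in all libraries and 0 were called at 1 h against 0 h by limma. *Cyp17a1* was the largest term of the theca and stroma sum at 0 h and 1 h (means of 123, 193 and 21.9 FPKM). *Dcn*, *Acta2* and *Tcf21* also lay lower at 6 h than at 0 h without overlap. *Col1a1*, *Col1a2*, *Col3a1*, *Pdgfra* and *Insl3* overlapped between 0 h and 6 h. The part of these cell types in the DUSP levels at 6 h was not tested.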

How the data were processed

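The members and the gene lists were chosen with earlier results of these data known. Per the labels' protocols, total RNA was extracted in Trizol and a TruSeq RNA kit was used for the libraries. The authors deposited FPKM values, 54759 rows for each of 9 libraries. The submitters' processing notes name HISAT2 2.0.5 and mm10, and the program that made the FPKM values is not given in the sources used here. Between 9364 and 9682 rows per library lay above 0 and below 0.001 FPKM, so reads could not be recovered and no counting interval is given. Rows were summed per gene identifier, and 27 symbols stored as dates were restored. Values were tested as log2(FPKM + 1), which understates changes of low genes, with limma 3.58.1 in R 4.3.3 (trended prior variance, 1 fit of 3 group means, 6 residual degrees of freedom, no covariate). The filter was 1 FPKM or more in at least 3 libraries, and p-values were adjusted by Benjamini-Hochberg over all 14535 genes of a comparison. The fit was tested on simulated data with known changes. These were given only to genes above a floor in mean FPKM that *Dusp2*, *Dusp4*, *Dusp8* and *Dusp14* do not reach. The check therefore does not cover those members.

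Named genes were all members, up to 4 called genes with the largest change from each pathway list, and the 3 genes nearest in course to each member with a log2 change of 1 or more, leaving out clone and predicted names. *Mapk3* and *Dusp9* were added for their roles, after their values were seen. Motifs and printed sequences were also chosen with results known. Promoter windows are from RefSeq (GRCm38.p6), and gene positions and transcripts from GENCODE M21, the same build as mm10. Alternatives were other pseudocounts, filters and scalings, a replicate block, the most abundant row, fits of 2 groups, and leaving out each library.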

Additional observations from a re-analysis of the deposited data

How the results depend on the processing

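Each of the 27 tests of a member was repeated under up to 18 alternatives, which gave 474 values. Of these 442 kept their side of the threshold, 29 lost a call, 3 gained one and 0 reversed a called direction. The uncalled changes of *Dusp10* and *Dusp16* from 1 h to 6 h took the other sign in some alternatives, reaching −0.07 and 0.07. Lost calls concerned *Dusp1*, *Dusp5* and *Dusp10* at 1 h against 0 h and *Dusp7* at 6 h against 0 h, as given with each gene. Leaving out 1 library each gave 4 to 7 members called higher at 1 h against 0 h. It was 4 when the library left out was replicate 1 or 3 at 0 h or replicate 3 at 1 h, where *Dusp4*, *Dusp6*, *Dusp8* and *Dusp16* were left. With a filter of 5 FPKM, 5 members were called higher at 6 h against 0 h and 0 lower at 6 h against 1 h, since *Dusp4*, *Dusp8* and *Dusp14* were then not tested. Over all genes at 1 h against 0 h, leaving out 1 library gave 904 to 1601 higher (904 without 1 h replicate 3) and 295 to 1223 lower (over 1.5 times fewer lower without any 1 of the 0 h libraries or replicate 1 or 3 at 1 h). FPKM scaled to the mean sum gave 2634 lower. The cause of these shifts was not tested.

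No label says that replicate numbers pair libraries. Correlations of deviations from the group means lay between −0.0783 and 0.147 for 9 library pairs of equal number. For 18 pairs of unequal number they lay between −0.151 and 0.0861. The ranges overlap, with equal numbers reaching higher, and whether numbers pair libraries was not tested. With a replicate block, 7, 9 and 3 members were called higher in the 3 comparisons and 1 lower at 6 h against 1 h, and the added call was *Dusp1* at 6 h against 0 h (adjusted p = 0.0203). Of 30 counts over the pathway lists 17 stayed within 1.5 times in every setting, and the largest shift was 3 genes. The depth in reads is unknown, which limits what can be said of *Dusp2*, *Dusp14* and the 0 h levels of *Dusp4* and *Dusp8*.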
